A study of Mus musculus with 15 samples.

Results

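The genes described here are the expressed zinc finger protein genes of tumor-associated macrophages (TAMs) that carry a Zfp symbol. A row of the expression table was taken as a member if its symbol is Zfp followed by digits, with at most 1 trailing letter, and if its mean over all samples was at least 1 FPKM (fragments per kilobase of transcript, scaled to the number of mapped fragments). This gave 257 members of 401 rows with such a symbol and of 55335 rows in the whole table. A further 123 Zfp rows were above 0 in some sample but below the limit, and 21 were listed at 0 in every sample. The members were thus chosen by their mean FPKM over the 15 samples of all groups. Their level was fixed by the rule. Differences between groups were not used, but the limit let in 30 members with a mean under 1 FPKM in control alone. Such members had to be higher in the miRNA groups. Zfp36l1 and Zfp36l2 do not match the symbol pattern and are given only beside Zfp36.

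RNA was measured in TAMs sorted by FACS from orthotopic liver tumors grown in C57BL/6 mice from the mouse hepatoma line Hepa1-6. The tumor cells carried luciferase and a lentiviral vector in every group, which was a control vector, a vector for miR-144 or a vector for miR-451a. The vector was thus in the tumor cells, and the macrophages that were measured came from the host. The sort was on CD11b and F4/80, and the tumors had grown for 3 weeks. Each of the 3 groups, called control, miR-144 and miR-451a below, had 5 samples. The authors' figure legend for this RNA-seq gives n = 3, a difference that the labels do not explain. The labels do not say that the samples of a group are separate mice, so the p-values measure only the spread between these samples, which may be technical. In a sorted bulk sample, fewer cells of a type and less RNA per cell cannot be told apart.

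Most proteins with a Zfp name carry C2H2 zinc fingers, small folds in which a pair of cysteines and a pair of histidines hold a zinc ion and neighbouring fingers together read a stretch of DNA. Many also carry a KRAB domain, which recruits TRIM28 (KAP1) and through it SETDB1 and HP1 proteins, so that the bound site, often a retrotransposon, is packed into silent chromatin. The name also covers proteins of other kinds. Zfp36 (tristetraprolin) has CCCH fingers, binds AU-rich elements of mRNAs such as that of Tnf and brings them to deadenylation, a brake on inflammatory output in macrophages.

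The mature miRNAs that define the groups are shown because their overexpression in the tumor cells sets the groups apart. The sequences are those of RefSeq (GRCm38.p6), 5′ to 3′, with the seed, bases 2 to 8, in capitals. The 3 mature sequences have different seeds, and their genes lie within 1 cluster on chromosome 11.
miR-144-5p: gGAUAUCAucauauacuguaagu
miR-144-3p: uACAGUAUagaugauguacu
miR-451a: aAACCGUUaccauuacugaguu

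For some members named below as rises and falls, a stretch of 120 bases upstream of the RefSeq start is shown (GRCm38.p6, ending 10 bases before the start). Members of both directions can then be read side by side. Of the named rises and falls below, the first 3 and first 2 with a RefSeq promoter and a stretch that touches no annotated exon were taken. Zfp609 and Zfp703, the deepest falls, had no such promoter, and the stretches of Zfp658 and Zfp142 touch an exon. Capitals mark a GC box (GGGCGG) or a CCAAT box (CCAAT) on either strand, which do not overlap each other here. Zfp217, Zfp467 and Zfp760 rose, and Zfp101 and Zfp382 fell. The stretches of Zfp217 and Zfp467 lie within the GENCODE M21 bounds of their genes, upstream of a RefSeq start inside the gene. The stretches of Zfp217 (chr2:170142686-170142805, minus strand), Zfp467 (chr6:48445101-48445220, minus strand), Zfp760 (chr17:21707611-21707730, plus strand), Zfp101 (chr17:33394648-33394767, minus strand) and Zfp382 (chr7:30121802-30121921, plus strand) read as follows.
Zfp217: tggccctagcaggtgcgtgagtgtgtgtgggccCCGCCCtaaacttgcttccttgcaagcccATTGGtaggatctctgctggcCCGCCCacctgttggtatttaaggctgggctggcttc
Zfp467: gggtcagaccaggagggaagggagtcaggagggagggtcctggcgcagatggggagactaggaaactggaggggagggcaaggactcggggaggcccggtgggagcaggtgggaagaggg
Zfp760: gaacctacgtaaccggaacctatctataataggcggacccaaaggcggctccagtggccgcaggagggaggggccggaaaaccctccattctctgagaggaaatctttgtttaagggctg
Zfp101: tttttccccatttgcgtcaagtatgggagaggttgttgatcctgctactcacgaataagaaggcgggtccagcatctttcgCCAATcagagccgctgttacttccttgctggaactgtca
Zfp382: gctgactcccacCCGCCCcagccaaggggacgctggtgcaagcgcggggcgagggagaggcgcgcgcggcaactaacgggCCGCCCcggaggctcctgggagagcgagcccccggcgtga

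Both kinds of letters occurred on both sides. The stretch of Zfp217 held 2 GC boxes and 1 CCAAT box, that of Zfp382 2 GC boxes and that of Zfp101 1 CCAAT box, while those of Zfp467 and Zfp760 held neither. RefSeq promoters of 250 bases before to 50 after the start were found for 218 members. Of these, 48.6% held a GC box and 51.8% a CCAAT box, against 66.1% and 38.95% of 8097 promoters of tested genes and 35.9% and 37.9% of all 27025 promoters. The shares were 39.55% and 57.46% for members with a KRAB domain by the profile described below. Members without one had 63.1% and 42.86%, near those of tested genes. A CCAAT box stood in 78 of 137 members that rose in both comparisons with control, in 23 of 50 that passed in neither and in 2 of 7 that fell in both. The ETS-type letters CCGGAAG stood in 25, 16 and 3 of the same promoters, and in 20.6% of those of tested genes. The median GC content of members' promoters was 54.3%, compared with 61% for tested genes. It was 52.33% for members with a KRAB domain and 61.5% for those without. A match is a description of letters and was not tested.

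The members were expressed at low to middle levels. Their median over the mean of all samples was 2.83 FPKM, compared with 6.49 FPKM for the 11419 genes that passed the same limit. In all, 76 members lay at 1 to 2 FPKM, 118 at 2 to 5, 59 at 5 to 20 and 4 at 20 or more. All 257 members were above the value of 3 fragments in every sample, a floor that was at most 0.176 FPKM for any member and covers counting error only. The members just inside the limit were Zfp235, Zfp951 and Zfp606, with means of 1.01, 1.01 and 1.03 FPKM, and the rows just outside it were Zfp619, Zfp108 and Zfp560, with 0.999, 0.989 and 0.913 FPKM. The limit let in 30 members whose control mean was under 1 FPKM and whose means in both miRNA groups were at least 1, and 0 with the opposite pattern, so counts are also given for the 226 members with a mean of at least 1 in every group.

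Of the 257 members, 255 are protein-coding in the GENCODE M21 annotation, and Zfp469 and Zfp125 are not. A C2H2 pattern in the translated coding sequences gave a median of 10 fingers per protein, from 0 to 37 in Zfp142. The pattern was not found in 5 proteins, which are Zfp36, Zfp330, Zfp503, Zfp703 and Zfp839. A KRAB profile matched 148 of the 255 proteins. Those had a median of 12 fingers and a median level of 2.33 FPKM, compared with 7 fingers and 3.99 FPKM for the 107 others.

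Zfp members were higher in TAMs of both miRNA groups far more often than lower. With values as deposited, 177 of 257 members rose and 9 fell in miR-144 against control, while among all genes tested 47.1% rose and 20.1% fell. In miR-451a against control, 172 rose and 9 fell, where 48.1% and 20.3% of all genes tested did. The members that rose were 68.9% and 66.9% of the members, and those that fell 3.50% in either comparison. These calls used limma on log2(FPKM + 1) and a Benjamini-Hochberg adjusted p under 0.05 over all 11419 genes, and both comparisons share the control samples. The differences were small. The median log2 difference of the members was 0.26 and 0.26, and that of all genes tested 0.13 and 0.14. A log2 difference of at least 0.5 in size, besides the adjusted p, was reached by 29 members upward and 2 downward in miR-144 (15.1% and 7.67% of all genes tested), and by 37 and 2 in miR-451a (16.5% and 8.0%).

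No group overlap was seen for many members. All 5 miR-144 samples were above all 5 control samples in 136 members and below them in 7, where this held for 37.9% and 16% of all genes tested. For miR-451a the counts were 142 and 7, where 38.8% and 16.4% of all genes tested were that way. In both comparisons at once, 161 members rose and 9 fell, and 60 passed in neither. The corresponding shares of all genes tested were 44.5% and 18.3%. Another 16 members passed as higher in miR-144 alone and 11 in miR-451a alone, and no member passed in opposite directions. Among the 11419 genes tested, 3125 passed in neither, 291 as higher in miR-144 alone and 405 in miR-451a alone. None of these genes passed in opposite directions. Of the 226 members with a mean of at least 1 FPKM in every group, 153 rose and 8 fell in miR-144, and 146 and 8 in miR-451a. Of all genes tested that met the limit in every group, 45.8% rose and 20.3% fell in miR-144, and 46.9% and 20.5% in miR-451a.

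The samples differ in their overall level, and this moves the counts. The median log2(FPKM + 1) over all genes tested lay 0.08 to 0.12 below the average sample in control and 0.03 to 0.07 above it in the miRNA groups. After each sample was centred on that median, 112 members rose and 22 fell in miR-144, against 30.8% and 30.7% of all genes tested. In miR-451a 108 rose and 24 fell, against 31.3% and 31.8%. Members higher made up 95.2% and 95.03% of the members that passed with values as deposited, and 83.6% and 81.8% after centring. Over all genes tested the same share was 70.1% and 70.3% as deposited, and 50.01% and 49.6% after centring. The median log2 difference of the members after centring was 0.13 and 0.12, and 97 members rose and 20 fell in both comparisons, against 28.4% and 28.7% of all genes tested. Every member that rose after centring had also risen before it. Centring makes this likely, since it lowers every difference from control by the same amount within a comparison. Quantile normalization gave 100 members that rose and 25 that fell in miR-144, against 32% and 29.3% of all genes tested, and 92 and 29 in miR-451a, against 32.9% and 30.0%. Rescaling to TPM moved the medians the other way, to 0.40 and 0.41, and no median of all genes tested is given for it. FPKM summed to 283362 to 307552 per sample, so TPM values are larger and the added 1 shrinks differences less. A pseudocount of 0.1 FPKM gave medians of 0.37 and 0.36. How much of the TPM move this makes up was not tested.

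**Figure D1:**
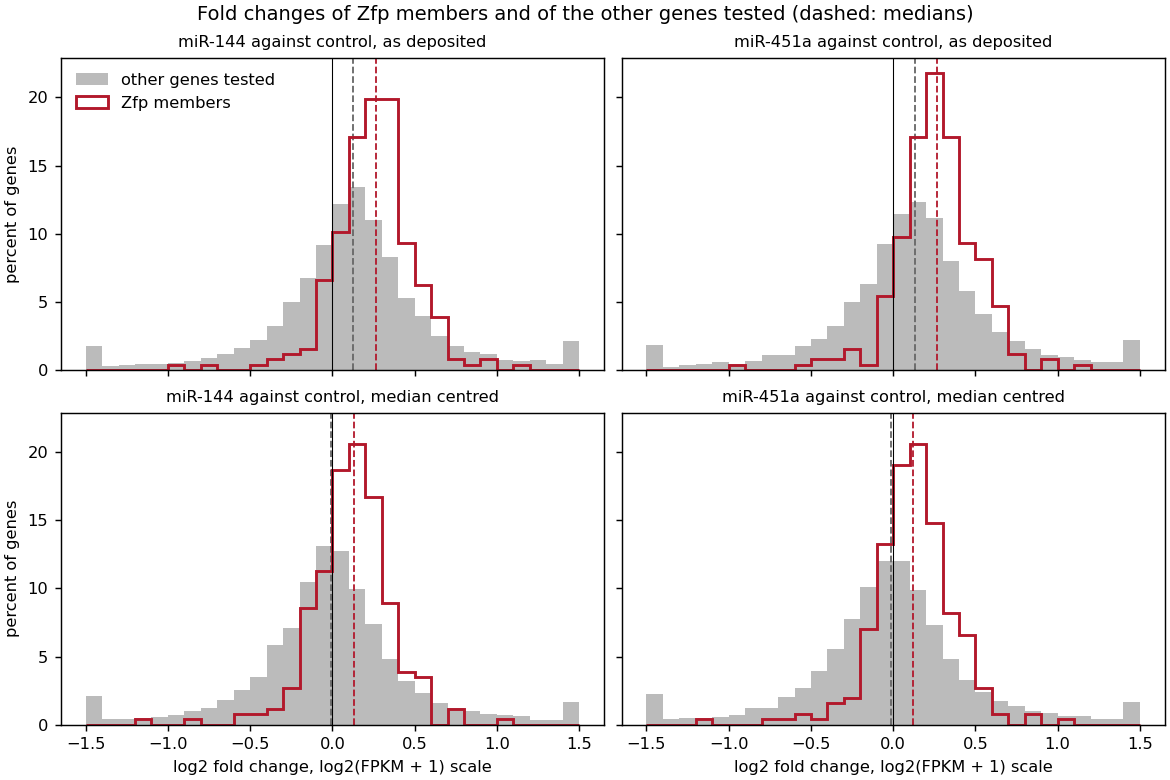
Percent of genes (vertical axis) by log2 fold change on the log2(FPKM + 1) scale (horizontal axis, bins of equal width, the end bins also holding values beyond 1.5 in size) for 257 Zfp members (red outline) and the other genes tested (grey), with values as deposited (top) and after median centring (bottom). Dashed lines are medians, and the members' median lies to the right of the other genes' median in all panels.

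In each sample, the mean log2(FPKM + 1) over the members was taken. It ranged from 1.90 to 1.93 in control, from 2.12 to 2.18 in miR-144 and from 2.13 to 2.21 in miR-451a. Control samples lay below the others, and the miRNA groups overlapped. After centring the ranges were 1.98 to 2.02, 2.07 to 2.15 and 2.10 to 2.14, and control still lay below both. The summed FPKM of the members was 922 to 955 in control, 1102 to 1175 in miR-144 and 1128 to 1184 in miR-451a. No test was run on these means, since the members were chosen with results known.

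**Figure D2:**
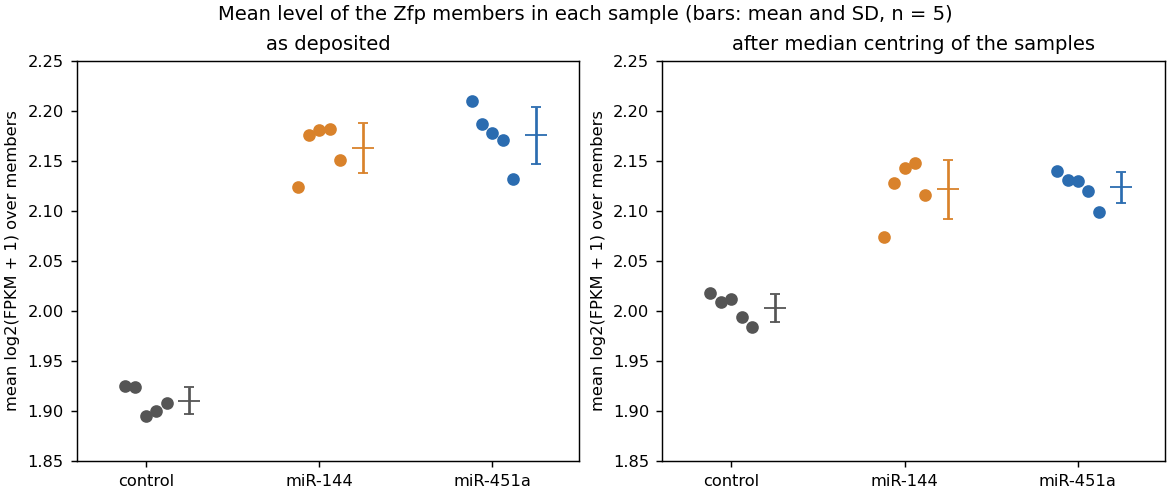
Mean log2(FPKM + 1) over the 257 members in each sample (points), with the mean and SD of the 5 samples of a group (bars), as deposited (left) and after median centring (right). The vertical axis does not start at 0. The 5 control samples lie below the miRNA samples in both panels, with a smaller gap after centring.

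Facts of the libraries stand beside these counts. Depth implied by steps between low values was 15.5 to 30.3 M fragments per sample, and replicates of a group correlated at 0.982 to 0.993 (Pearson's r across genes, log scale). The macrophage list (Adgre1, which encodes F4/80, Csf1r, Cd68, Lyz2, Fcgr1, Mertk and 2 rows of Itgam) was present in every sample, and its summed level was 8694 to 9526 FPKM in control, 14688 to 16545 in miR-144 and 14383 to 15593 in miR-451a. Lyz2 made up most of the sum. Of the 8 rows 6 rose in both comparisons, 1 row of Itgam passed in neither, and Cd68 fell, at 1444 ± 46.2 FPKM (SD, n = 5) in control, 919 ± 25.04 in miR-144 and 910.4 ± 57.4 in miR-451a. The 6 hepatocyte markers, Alb among them, were listed at 0 in every sample, and no T cell, NK cell or dendritic cell marker reached a mean of 1 FPKM. The B cell marker Cd79b was at 0.185 ± 0.0964 FPKM (SD, n = 5) in control, 1.15 ± 0.145 in miR-144 and 1.38 ± 0.178 in miR-451a, with Ms4a1 and Pax5 near 0. Of 6 neutrophil markers only Csf3r did, which was at 70.4 ± 5.11 FPKM (SD, n = 5) in control, 48.95 ± 2.41 in miR-144 and 48.3 ± 3.45 in miR-451a. The fibroblast list, in which Lrat was at 0 and Col1a1, Col1a2, Col3a1 and Dcn were present, summed to 103 to 128 FPKM in control, 136 to 201 in miR-144 and 174 to 223 in miR-451a. Of 5 endothelial markers only Kdr reached 1 FPKM, with 2.80 ± 0.221 FPKM (SD, n = 5) in control, 3.84 ± 0.401 in miR-144 and 4.07 ± 0.729 in miR-451a. Among cell cycle genes, Mki67 was at 7.78 ± 0.273 FPKM (SD, n = 5) in control, 5.48 ± 0.695 in miR-144 and 6.08 ± 0.976 in miR-451a, whereas Cdk1 was at 1.06 ± 0.0862 FPKM (SD, n = 5) in control, 1.52 ± 0.172 in miR-144 and 1.69 ± 0.201 in miR-451a. The part of these shifts in the members' differences was not tested.

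The largest rises on the log2(FPKM + 1) scale, which shrinks the differences of low genes, were Zfp658, Zfp217, Zfp467, Zfp760, Zfp710, Zfp40, Zfp719 and Zfp397, ranked by the smaller of the differences from control among members that passed in both comparisons without overlap. Zfp658 and Zfp719 are 2 of the 30 members that met the limit only through the miRNA groups, and such members had to be higher there. Zfp658 was at 1.01, 1.06, 0.814, 0.900 and 0.769 FPKM in the control samples, 2.998, 3.30, 3.34, 3.28 and 3.08 FPKM in the miR-144 samples and 3.51, 3.31, 3.44, 3.54 and 2.95 FPKM in the miR-451a samples. Every miRNA sample was above every control sample, and the miRNA groups overlapped each other. Zfp658 (chr7:43562256-43575461, a KRAB protein with 21 fingers) had log2 differences from control of 1.14 ± 0.052 (SE) for miR-144 and 1.19 ± 0.052 for miR-451a, with limma adjusted p of 4.37e-11 and 2.47e-11. Its mean FPKM was 3.51-fold and 3.68-fold that of control.

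Zfp217 encodes a factor that works with CoREST and CtBP corepressors and is amplified in human breast cancer. Zfp217 was at 9.07, 9.12, 8.97, 8.50 and 8.87 FPKM in the control samples, 17.3, 17.99, 18.98, 18.2 and 17.1 FPKM in the miR-144 samples and 18.4, 17.8, 18.4, 19.3 and 17.8 FPKM in the miR-451a samples. The spread within each group was small next to the gap between control and the others, and the miRNA groups lay together. Zfp217 (chr2:170108643-170148103, 8 fingers, no KRAB match) had log2 differences from control of 0.93 ± 0.034 (SE) for miR-144 and 0.97 ± 0.034 for miR-451a, with limma adjusted p of 2.72e-12 and 1.75e-12. Its stretch printed above, with 2 GC boxes, lies within these bounds, upstream of a RefSeq start inside the gene.

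Zfp467 is known from the choice of mesenchymal cells between bone and fat. Zfp467 was at 1.33, 1.19, 1.77, 1.52 and 1.48 FPKM in the control samples, 3.40, 3.61, 3.69, 4.08 and 3.10 FPKM in the miR-144 samples and 4.77, 4.10, 3.29, 3.60 and 3.25 FPKM in the miR-451a samples. No control sample reached the lowest miRNA sample. Zfp467 (chr6:48427697-48445825) had log2 differences from control of 0.90 ± 0.088 (SE) for miR-144 and 0.96 ± 0.088 for miR-451a, with limma adjusted p of 2.97e-07 and 1.30e-07. Zfp710 rose from a higher level. Zfp710 was at 16.8, 15.1, 15.9, 14.1 and 16.7 FPKM in the control samples, 28.1, 27.4, 23.8, 23.95 and 28.8 FPKM in the miR-144 samples and 26.7, 26.3, 24.3, 23.5 and 29.9 FPKM in the miR-451a samples. The groups did not overlap with control, and the mean was 1.68-fold and 1.66-fold that of control, with log2 differences of 0.71 and 0.70 and limma adjusted p of 3.90e-07 and 4.68e-07.

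The other 4 named rises were those of Zfp760, Zfp40, Zfp719 and Zfp397. Zfp760 and Zfp40 lie in the same KRAB gene cluster of chromosome 17, and Zfp719 is a KRAB gene of chromosome 7. Zfp760 was at 1.22 ± 0.132 FPKM (SD, n = 5) in control, 2.68 ± 0.298 in miR-144 and 2.70 ± 0.171 in miR-451a. Zfp40 was at 1.37 ± 0.158 FPKM (SD, n = 5) in control, 2.69 ± 0.134 in miR-144 and 3.05 ± 0.461 in miR-451a, and Zfp719 at 0.730 ± 0.106 FPKM (SD, n = 5) in control, 1.69 ± 0.108 in miR-144 and 1.75 ± 0.246 in miR-451a. Zfp397, a SCAN domain protein, was at 3.57 ± 0.223 FPKM (SD, n = 5) in control, 6.10 ± 0.213 in miR-144 and 6.12 ± 0.284 in miR-451a. Their log2 differences were 0.72 and 0.74, 0.64 and 0.77, 0.64 and 0.66 and 0.64 and 0.64 in this order, and all passed in limma after centring too. In all, 119 members rose in both comparisons without overlap and 9 had means at least 2-fold those of control in both miRNA groups, where 34.1% and 7.20% of all genes tested did. These were Zfp658, Zfp217, Zfp467, Zfp760 and Zfp719 and, named after their values were seen, Zfp46, Zfp229, Zfp580 and Zfp763. Of the 9, all but Zfp217, Zfp467 and Zfp760 had control means under 1 FPKM and met the limit only through the miRNA groups, where they had to be higher. Among members with a mean of at least 1 FPKM in every group, 99 rose without overlap and 3 reached 2-fold in both, where 33.1% and 5.46% of all genes tested that met the same limit did. By mean FPKM, Zfp40 rose 1.96-fold and 2.22-fold, Zfp397 1.71-fold and 1.72-fold and Zfp710 less than 2-fold as given above.

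**Figure D3:**
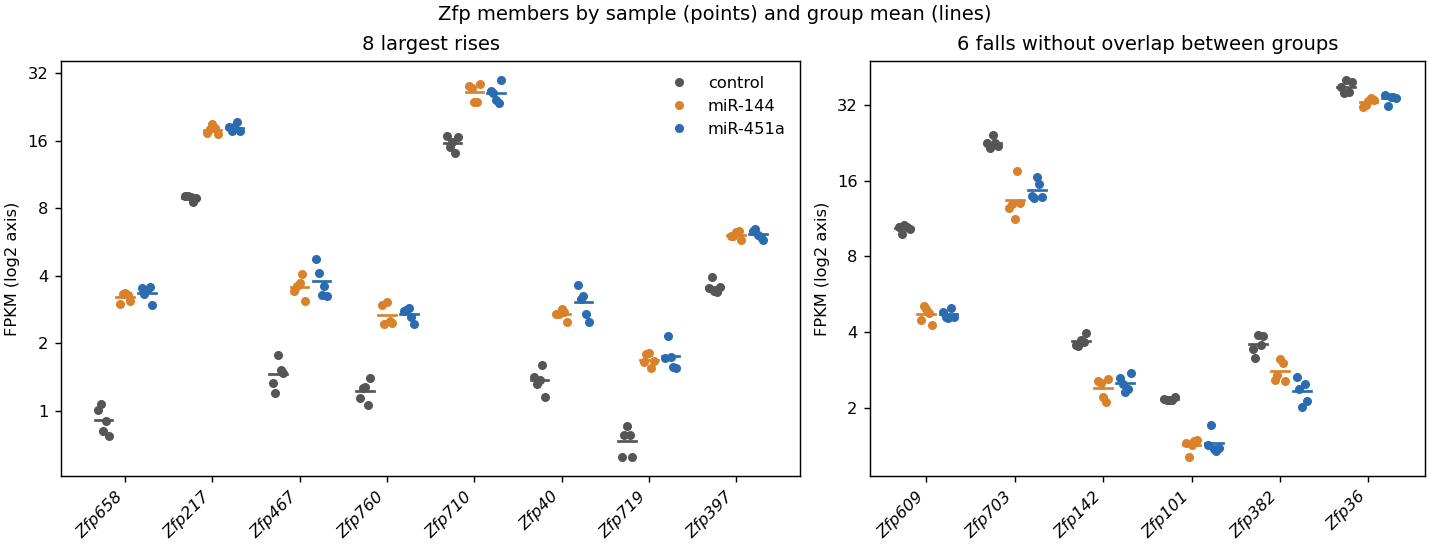
FPKM by sample on a log2 axis (points, 5 per group) and group means (lines) for the 8 largest rises and the 6 falls without overlap. In the left panel every miRNA sample lies above every control sample of the same gene, and in the right panel every miRNA sample is the lower.

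Falls were few, with 6 that passed in both comparisons without overlap (where 14.5% of all genes tested did), and Zfp609 was by far the deepest. Zfp609 encodes a partner of the cohesin loader Nipbl and of the Integrator complex. Zfp609 was at 10.5, 9.81, 10.7, 10.5 and 10.3 FPKM in the control samples, 4.48, 5.09, 4.96, 4.75 and 4.28 FPKM in the miR-144 samples and 4.79, 4.59, 4.57, 4.98 and 4.59 FPKM in the miR-451a samples. The control samples lay far above the miRNA samples, with 45.6% and 45.6% of the control mean left. Zfp609 (chr9:65692391-65827564) had log2 differences from control of -0.99 ± 0.041 (SE) for miR-144 and -0.99 ± 0.041 for miR-451a, with limma adjusted p of 1.32e-11 and 1.24e-11. It was the 1 member whose mean was at most 50% of that of control in both miRNA groups, as held for 3.76% of all genes tested.

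Zfp703 encodes a corepressor of the NET family without a C2H2 pattern. Zfp703 was at 22.6, 21.5, 24.2, 22.5 and 22.1 FPKM in the control samples, 12.4, 12.96, 11.2, 17.5 and 13.01 FPKM in the miR-144 samples and 13.95, 13.6, 16.6, 15.6 and 13.8 FPKM in the miR-451a samples. A miR-144 sample, replicate 4, stood above the other miR-144 samples but below all control samples. Zfp703 (chr8:26977325-26981461) had log2 differences from control of -0.72 ± 0.089 (SE) for miR-144 and -0.59 ± 0.089 for miR-451a, with limma adjusted p of 3.71e-06 and 2.90e-05. Its means in the miRNA groups were 59.5% and 65.1% of control.

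Zfp142, the member with the most fingers, was at 3.69 ± 0.173 FPKM (SD, n = 5) in control, 2.40 ± 0.226 in miR-144 and 2.51 ± 0.184 in miR-451a, with log2 differences of -0.46 and -0.42. It overlaps Plcd4 on the opposite strand, and whether the authors counted by strand is not given in the sources used here, so reads of the pair cannot be told apart. The KRAB genes Zfp101 and Zfp382, whose upstream stretches are printed above, were also lower. Zfp101 was at 2.17 ± 0.0238 FPKM (SD, n = 5) in control, 1.43 ± 0.0896 in miR-144 and 1.45 ± 0.147 in miR-451a. Zfp382 was at 3.58 ± 0.301 FPKM (SD, n = 5) in control, 2.80 ± 0.264 in miR-144 and 2.33 ± 0.254 in miR-451a, with log2 differences of -0.27 and -0.46. Besides Zfp36, which follows, the remaining members that fell in both comparisons were Zfp503, Zfp655 and Zfp775, which overlapped with control in at least 1 comparison and are named here after their values were seen. Their log2 differences were -0.26 and -0.25, -0.21 and -0.21 and -0.36 and -0.25.

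The highest level belonged to Zfp36, the mRNA decay factor. Zfp36 was at 37.8, 35.7, 40.2, 35.8 and 39.4 FPKM in the control samples, 31.4, 32.1, 33.3, 33.9 and 33.3 FPKM in the miR-144 samples and 35.05, 31.8, 34.5, 34.3 and 34.2 FPKM in the miR-451a samples. All miRNA samples were below the lowest control sample, by a small margin. Zfp36 (chr7:28376784-28380253, overlapped by Gm44710 on the opposite strand) had log2 differences from control of -0.20 ± 0.039 (SE) for miR-144 and -0.15 ± 0.039 for miR-451a, with limma adjusted p of 3.57e-04 and 0.00318. Its relatives outside the symbol rule moved the other way. Zfp36l1 was at 46.3 ± 2.69 FPKM (SD, n = 5) in control, 81.8 ± 6.47 in miR-144 and 85.2 ± 5.88 in miR-451a and Zfp36l2 at 68.5 ± 1.89 FPKM (SD, n = 5) in control, 110.3 ± 4.51 in miR-144 and 118 ± 8.06 in miR-451a, with log2 differences of 0.81 and 0.86 and 0.68 and 0.78 and limma adjusted p of 1.28e-08 and 5.36e-09 and 2.84e-09 and 5.36e-10. Zfp36 thus fell and both relatives rose with values as deposited and after centring.

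The wider list of AU-rich mRNA decay held 15 tested genes, Zfp36l1 and Zfp36l2 included. Of these, 11 rose and 1 fell in miR-144 and 13 rose and 0 fell in miR-451a, with medians of 0.25 and 0.25, where 47.1% and 48.1% of all genes tested rose. After centring 8 rose and 2 fell in miR-144 and 7 and 1 in miR-451a, with medians of 0.12 and 0.11. By the same centred values 30.8% of all genes tested rose and 30.7% fell in miR-144, and 31.3% and 31.8% in miR-451a. With values as deposited 20.1% and 20.3% of all genes tested fell. Mapkapk2, the kinase that phosphorylates and restrains tristetraprolin, was at 65.2 ± 4.19 FPKM (SD, n = 5) in control, 136 ± 10.1 in miR-144 and 135 ± 11.3 in miR-451a, and its log2 differences were 1.05 and 1.04. The deadenylase subunits Cnot2 and Cnot8 rose, with log2 differences of 0.38 and 0.33 for the former and 0.38 and 0.41 for the latter, whereas Cnot6l had -0.17 and -0.09 with limma adjusted p of 0.00957 and 0.139.

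Of the other members with the highest levels, Zfp106, Zfp91 and Zfp207 differed little. Zfp106, an RNA-binding protein, was at 28.9 ± 1.09 FPKM (SD, n = 5) in control, 31.6 ± 1.36 in miR-144 and 30.2 ± 1.47 in miR-451a, with limma adjusted p of 0.0106 and 0.163. Zfp91, a ubiquitin ligase of the non-canonical NF-kB pathway, was at 17.6 ± 0.462 FPKM (SD, n = 5) in control, 18.04 ± 0.612 in miR-144 and 17.4 ± 0.755 in miR-451a, with limma adjusted p of 0.428 and 0.669. Zfp207, which binds Bub3 and splicing factors, was at 15.4 ± 0.437 FPKM (SD, n = 5) in control, 16.5 ± 0.468 in miR-144 and 16.8 ± 0.937 in miR-451a, with log2 differences of 0.10 and 0.12 as deposited and -0.04 and -0.02 after centring. Zfp207 also lost its miR-144 call without control replicate 2 (0.08), or without miR-144 replicate 2 (0.09) or 3 (0.09). The calls of Zfp207 and of Zfp106 in miR-144 were lost with centring, while Zfp91 passed as lower after it, with centred log2 differences of -0.10 and -0.16.

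Members with roles in RNA and translation were a list of 11, of which 10 were expressed, with Zfp473 below the limit. Of the 10, 8 rose and 1 fell in miR-144, and 5 rose and 1 fell in miR-451a, with Zfp36 the member that fell. Of all genes tested 47.1% and 48.1% rose, and 20.1% and 20.3% fell. The count of rises in miR-451a was thus near that background. Zfp598, the ligase that marks collided ribosomes, was at 11.8 ± 0.820 FPKM (SD, n = 5) in control, 13.8 ± 0.278 in miR-144 and 13.97 ± 0.726 in miR-451a. Zfp346, which binds double-stranded RNA, had log2 differences of 0.33 and 0.32, and Zfp638, an RNA- and DNA-binding nuclear protein, had 0.22 and 0.26. Zfp830, a splicing-related protein, had 0.16 and 0.19. After centring Zfp346 still passed in both comparisons and Zfp638 in miR-451a, and Zfp598 and Zfp830 in neither. The miR-144 call of Zfp830 was lost without control replicate 1 (0.13) or 3 (0.13), or without miR-144 replicate 2 (0.13). Zfp326, a subunit of the DBIRD complex, was at 2.55 ± 0.173 FPKM (SD, n = 5) in control, 2.51 ± 0.151 in miR-144 and 2.41 ± 0.228 in miR-451a and did not pass in either comparison, but passed as lower in both after centring, with -0.15 and -0.21. Zfp622, which acts in maturation of the large ribosomal subunit, was at 5.65, 5.46, 5.63, 3.22 and 5.35 FPKM in the miR-451a samples, 1 of which lay below all control samples. It passed in miR-144, with 0.34, but not after centring, and in miR-451a it passed without replicate 4 (0.32), the lowest sample.

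After centring 1 of these 10 rose and 2 fell in miR-144, and 2 and 2 in miR-451a. Of all genes tested 30.8% rose and 30.7% fell in miR-144 after centring, and 31.3% and 31.8% in miR-451a. The counts lie below these shares, but the list holds only 10 genes and the difference was not tested. Zfp385a, which binds RNA and p53, had an uneven pattern. Zfp385a was at 25.7, 23.01, 21.05, 21.9 and 22.5 FPKM in the control samples, 24.4, 23.9, 39.3, 24.9 and 41.1 FPKM in the miR-144 samples and 23.2, 24.7, 23.3, 25.7 and 27.8 FPKM in the miR-451a samples. In miR-144, 2 samples stood far above the others, and its log2 differences of 0.37 and 0.12 had SE of 0.14. The limma adjusted p were 0.0260 and 0.451, and neither comparison passed after centring. The miR-144 call was lost without control replicate 3, where the log2 difference was 0.35, and without miR-144 replicate 3 (0.28) or replicate 5 (0.26).

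Transcription and chromatin factors were a list of 17, of which 15 were expressed, with Zfp462 and Zfp521 below the limit. In miR-144 9 rose and 1 fell, and in miR-451a 10 rose and 1 fell, with Zfp609 the member that fell, where 47.1% and 48.1% of all genes tested rose. After centring the counts were 5 and 3, and 5 and 3, and the 33.3% that rose was near the 30.8% and 31.3% of all genes tested that did. Falls made up 30.7% and 31.8% of all genes tested after centring, and 20.1% and 20.3% as deposited. The centred medians of the list were 0.11 and 0.21, against -0.005 and -0.007 for all genes tested. Zfp281, a GC-rich DNA binder of the pluripotency network, was at 4.26 ± 0.256 FPKM (SD, n = 5) in control, 6.89 ± 0.276 in miR-144 and 6.85 ± 0.215 in miR-451a, with log2 differences of 0.58 and 0.58 and limma adjusted p of 3.01e-09 and 3.21e-09. Zfp516, a partner of PRDM16 in brown fat, was at 5.07 ± 0.530 FPKM (SD, n = 5) in control, 8.21 ± 0.968 in miR-144 and 8.23 ± 0.782 in miR-451a, and Zfp687 at 2.80 ± 0.178 FPKM (SD, n = 5) in control, 4.42 ± 0.370 in miR-144 and 4.48 ± 0.139 in miR-451a. Both rose in both comparisons without overlap.

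Zfp687 and Zfp592 are related proteins of a ZMYND8 complex, but Zfp592 did not pass as deposited. Zfp592 was at 8.64 ± 0.358 FPKM (SD, n = 5) in control, 8.51 ± 0.265 in miR-144 and 8.35 ± 0.363 in miR-451a, with log2 differences of -0.02 and -0.04 as deposited (limma adjusted p of 0.656 and 0.277) and -0.15 and -0.19 after centring, where it passed as lower. Zfp367 did not pass as deposited either, at 3.60 ± 0.138 FPKM (SD, n = 5) in control, 3.53 ± 0.0984 in miR-144 and 3.64 ± 0.207 in miR-451a, and also passed as lower after centring, with -0.16 and -0.13. Zfp410, known as an activator of Chd4, had 0.06 and 0.08 and did not pass, while Chd4 itself fell from 69.7 ± 0.627 FPKM (SD, n = 5) to 58.4 ± 1.83 and 59.1 ± 1.30. Smaller rises were those of Zfp219 (0.34 and 0.39), Zfp143 (0.25 and 0.28), Zfp335 (0.15 and 0.18) and Zfp384 (0.15 and 0.16). Of these only Zfp219 still passed after centring, and the miR-144 call of Zfp335 was lost without control replicate 2 (0.12) or 4 (0.13), or without miR-144 replicate 2 (0.13) or 5 (0.12). Zfp143 is a promoter-bound factor of chromatin loops.

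Zfp263 and Zfp148 had a wide spread within groups. Zfp263 was at 15.2, 9.73, 11.98, 8.39 and 7.49 FPKM in the control samples, 10.5, 19.2, 10.5, 20.3 and 18.8 FPKM in the miR-144 samples and 18.9, 9.78, 10.4, 15.4 and 18.9 FPKM in the miR-451a samples. High and low values stood side by side in each group, and the groups overlapped. The log2 differences of 0.53 and 0.43 had SE of 0.24 and limma adjusted p of 0.0684 and 0.132. In miR-144 it passed without control replicate 1 (0.66), or without miR-144 replicate 1 (0.65) or replicate 3 (0.65). Zfp148, a GC-rich promoter binder, ranged from 3.25 to 5.55 FPKM in control, and from 3.79 to 7.34 and 3.98 to 7.08 in the miRNA groups. It passed as higher with limma adjusted p of 0.0320 and 0.0388, and no longer after centring or without any of control replicates 1, 4 and 5, where the log2 differences were 0.39 to 0.46 in miR-144 and 0.37 to 0.44 in miR-451a, and leaving out any of miR-144 replicates 1 to 4 (0.41 to 0.44) or of miR-451a replicates 1, 3, 4 and 5 (0.40 to 0.43) also ended its call in that group. Zfp644, a partner of the G9a and GLP methyltransferases, rose in miR-451a alone, with 0.15 and 0.35 and limma adjusted p of 0.183 and 0.00400, and the difference between the miRNA groups did not pass. Its call was lost after centring.

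Of the 5 members in the ubiquitin, SUMO and signalling list, Zfp318 and Zfp746 rose and Zfp703 fell in both comparisons, and Zfp91 and Zfp451 passed in neither, where 47.1% and 48.1% of all genes tested rose. After centring 2 rose and 2 fell in each comparison, with Zfp91 then lower, and 30.8% of all genes tested rose and 30.7% fell in miR-144, and 31.3% and 31.8% in miR-451a, so the list was near that background in both directions. Zfp318, which sets IgD splicing in B cells, was at 2.62 ± 0.116 FPKM (SD, n = 5) in control, 4.04 ± 0.144 in miR-144 and 3.998 ± 0.242 in miR-451a. Zfp746 (PARIS), a KRAB protein and a substrate of parkin, was at 2.63 ± 0.132 FPKM (SD, n = 5) in control, 3.72 ± 0.237 in miR-144 and 3.89 ± 0.184 in miR-451a. Zfp451, a SUMO ligase, was at 1.05, 2.05, 1.94, 1.92 and 1.20 FPKM in the control samples, a range that took in every miRNA sample.

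KRAB repressors with known targets were a list of 10, of which 6 were expressed. In miR-144 4 of the 6 rose and in miR-451a 5, and none fell by limma, where 47.1% and 48.1% of all genes tested rose and 20.1% and 20.3% fell. After centring 3 rose and 0 fell in each comparison, where 30.8% of all genes tested rose and 30.7% fell in miR-144, and 31.3% and 31.8% in miR-451a. Zfp445, a keeper of imprints, had the highest level, with 10.6 ± 0.288 FPKM (SD, n = 5) in control, 13.1 ± 0.540 in miR-144 and 13.3 ± 0.868 in miR-451a and log2 differences of 0.27 and 0.29. Zfp90 was at 2.05 ± 0.140 FPKM (SD, n = 5) in control, 3.73 ± 0.327 in miR-144 and 3.48 ± 0.582 in miR-451a, and Zfp266 at 2.82 ± 0.129 FPKM (SD, n = 5) in control, 4.09 ± 0.297 in miR-144 and 4.46 ± 0.298 in miR-451a. Both rose without overlap. Zfp809, which silences retroviral DNA, had 0.25 and 0.23 with limma adjusted p of 0.0321 and 0.0473, and its calls were lost after centring. They were also lost without control replicate 1 (0.21 and 0.18) or replicate 3 (0.24 and 0.22), and other single samples ended the call of a group too. Zfp568, the repressor of a placental Igf2 transcript, was at 0.897 ± 0.146 FPKM (SD, n = 5) in control, 1.28 ± 0.607 in miR-144 and 1.06 ± 0.0460 in miR-451a and did not pass. Zfp932 has 45.2% of its 50-base transcript stretches in common with other genes, mainly Gm15446, so its value, 2.05 ± 0.343 FPKM (SD, n = 5) in control, 2.36 ± 0.374 in miR-144 and 2.67 ± 0.322 in miR-451a, is uncertain. The list's known imprint factor Zfp57 was below the limit, at 0.170 FPKM.

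The partners of KRAB proteins, a list of 17 tested genes, were given by the same test. In miR-144 13 rose and 1 fell, and in miR-451a 14 and 1, where 47.1% and 48.1% of all genes tested rose. The medians were 0.15 and 0.19, near the 0.13 and 0.14 of all genes tested. After centring 6 rose and 2 fell in each comparison, and the 35.3% that rose was near the 30.8% and 31.3% of all genes tested that did. Falls were fewer than among all genes tested, of which 30.7% and 31.8% fell after centring and 20.1% and 20.3% as deposited. The difference was not tested. Trim28, the scaffold that KRAB domains bind, was at 19.2 ± 0.875 FPKM (SD, n = 5) in control, 23.6 ± 1.08 in miR-144 and 24.9 ± 1.21 in miR-451a. The H3K9 methyltransferase Setdb1 was at 9.89 ± 0.262 FPKM (SD, n = 5) in control, 12.6 ± 0.551 in miR-144 and 13.5 ± 0.431 in miR-451a, and Morc3 at 8.12 ± 0.418 FPKM (SD, n = 5) in control, 15.8 ± 0.680 in miR-144 and 15.6 ± 0.535 in miR-451a. Chd4, of the NuRD complex, was the gene that fell.

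Members with and without a KRAB domain were counted apart. Of 148 members with a KRAB match, 105 rose and 3 fell in miR-144 and 104 and 3 in miR-451a, and of 107 without, 70 and 6, and 68 and 6. Their median log2 differences were 0.28 and 0.28 with a match, and 0.22 and 0.22 without. After centring 75 rose and 9 fell in miR-144 and 68 and 11 in miR-451a with a match, and 37 and 13, and 40 and 13 without. The shares that rose were 70.9% and 70.3% with a match and 65.4% and 63.6% without, where 47.1% and 48.1% of all genes tested rose. After centring they were 50.7% and 45.9% with a match, and 34.6% and 37.4% without. The latter were not far from the 30.8% and 31.3% of all genes tested that rose. Falls were fewer in both classes than among all genes tested. Of those, 20.1% and 20.3% fell as deposited and 30.7% and 31.8% after centring. Members with 15 or more fingers had medians of 0.29 and 0.30, and those with the fewest (0 to 4) 0.21 and 0.22. The classes also differ in level, and the difference between them was not tested.

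The members were also set beside genes of like level. At 1 to 2 FPKM the medians of 76 members were 0.23 and 0.25, against 0.15 and 0.16 for all genes tested in that band. At 2 to 5 FPKM they were 0.30 and 0.29, against 0.15 and 0.17, and at 5 to 20 FPKM 0.26 and 0.25, against 0.12 and 0.13. Only 4 members lay at 20 or more FPKM, with medians of 0.25 and 0.09, against 0.06 and 0.06. The lowest band holds 29 of the 30 members that met the limit only through the miRNA groups, and these had to be higher there. Without genes whose mean was under 1 FPKM in some group, the medians in that band were 0.20 and 0.20 for 46 members, against 0.09 and 0.10 for all genes tested. Other zinc finger families were laid out in the same way. The 33 Zbtb genes had medians of 0.22 and 0.22, the 17 Zc3h genes 0.20 and 0.24, and the 13 Zkscan and Zscan genes 0.27 and 0.30. After centring these were 0.09 and 0.08, 0.06 and 0.09, and 0.13 and 0.15. The differences between families were not tested.

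**Figure D4:**
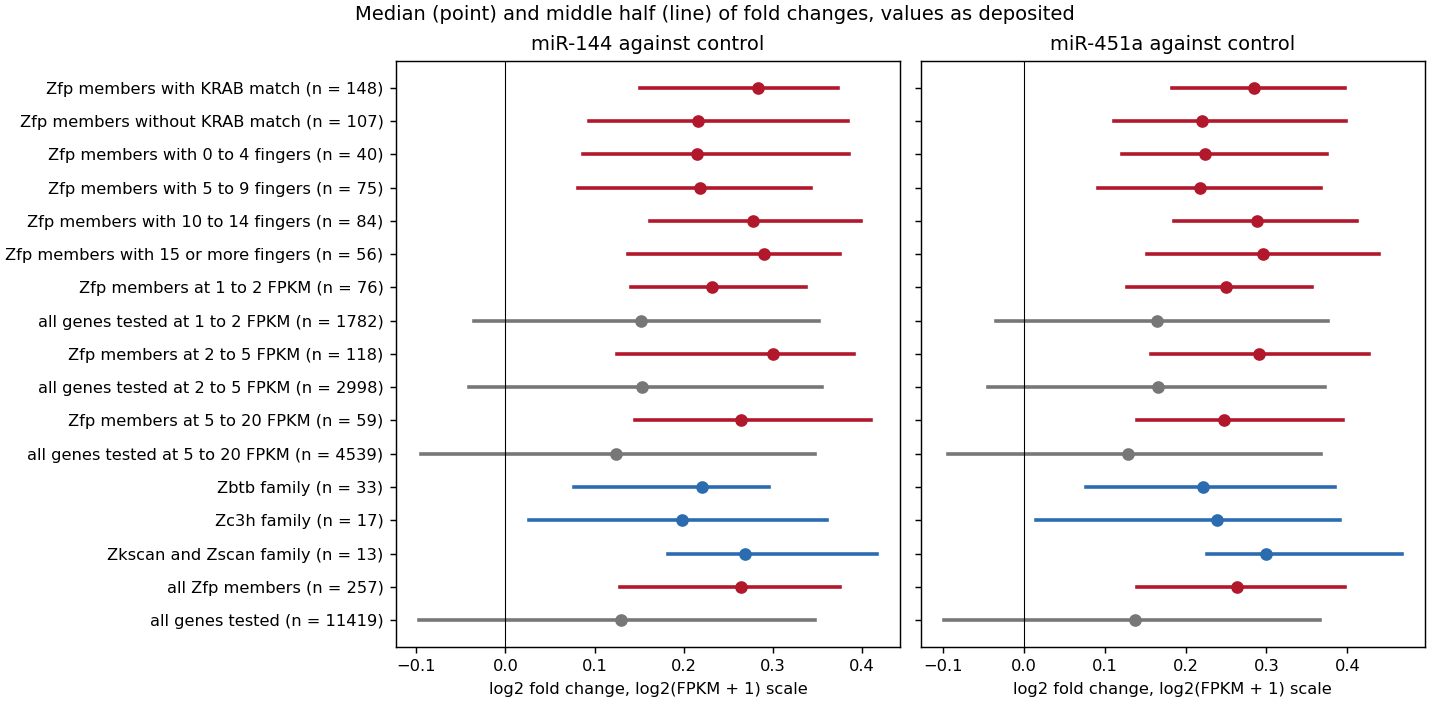
Median (point) and interquartile range (line) of log2 fold changes on the log2(FPKM + 1) scale, values as deposited, for classes of Zfp members (red), all genes tested in the same FPKM band (grey) and other zinc finger families (blue). The medians of the member classes lie to the right of those of all genes tested in both panels.

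Many members lie in clusters, as KRAB genes of the mouse do. Chromosome 7 held 59 members, chromosome 17 38 and chromosome 13 26. Runs of at least 5 members with gaps of at most 500 kb were found at 10 places and held 97 members. In the run of 19 members at chr17:21008903-23564238, all with a KRAB match, 15 rose in both comparisons with control, 0 fell in both and 3 passed in neither. In the run of 17 at chr13:67121660-67827002 the counts were 10, 0 and 4, and in the run of 12 at chr17:32765496-33631779 they were 10, 1 and 1, with Zfp101 the member that fell. The run with Zfp382 (10 members on chromosome 7) had 5 that rose in both and 1 that fell. Of all genes tested 44.5% rose in both and 18.3% fell in both, so the rises in the run with Zfp382 were near that background. Coordinates are those of GENCODE M21 on GRCm38, and the authors' build is not given in the sources used here. Over all members, 53 share over 10% of their 50-base stretches with some other gene of the annotation and 101 share none. Reads from shared stretches could be split between such genes.

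Between the miRNA groups no member passed. By limma 0 of 257 members rose or fell in miR-451a against miR-144, where 0.00% of all genes tested did, and 12 members had an unadjusted p under 0.05, where 5.22% of all genes tested did. Zfp276, Zfp945 and Zfp867 had the smallest p, and their log2 differences of miR-451a against miR-144 were 0.15 ± 0.047 (SE), 0.15 ± 0.049 and -0.16 ± 0.052, with limma adjusted p of 0.827, 0.827 and 0.914. Zfp945 was the 1 member whose miRNA groups did not overlap, as held in this direction for 0.552% of all genes tested, at 2.15, 2.19, 2.30, 2.26 and 2.20 FPKM in miR-144 and 2.67, 3.08, 2.46, 2.40 and 2.34 FPKM in miR-451a. Over all members the median difference was 0.02, with a range from -0.66 to 0.50. A p that misses the threshold does not show that the groups are alike.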

How the data were processed

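Total RNA of 15 sorted TAM samples was extracted with Trizol and sequenced on an Illumina HiSeq instrument. The authors deposited 1 table of FPKM per gene and sample. The submitters' processing notes name FastQC 0.11.2, STAR and StringTie. Parameters, strand setting and genome build are not given in the sources used here. Where a gene has several annotated transcripts its deposited FPKM often has more decimals than a single value would, so such values may be means over transcripts, and counts are also given for members with 1 transcript.

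Samples were grouped by their labels. The FPKM were tested as log2(FPKM + 1) with limma 3.58.1 (R 4.3.3; lmFit and eBayes with trend, 1 fit over the 3 groups) over the 11419 genes whose mean reached 1 FPKM, and p-values were adjusted after Benjamini and Hochberg. A fold change on this scale understates that of low genes. The scripts were tested on simulated data. The level of 1 further marker gene is not reported here. Fingers were counted by a C2H2 pattern and KRAB domains by a profile (pyhmmer 0.12.3) on GENCODE M21 translations. The members, the gene lists and the rules were chosen with earlier results of these data known. Named are the 8 largest rises and falls that passed in both comparisons with control without overlap (6 falls did), the 8 highest levels, the members of the role lists, those at the limit, and the 3 with the smallest p between the miRNA groups. Alternatives were another pseudocount, other filters, median centring, quantile normalization, TPM, a replicate block, a fit over only the groups compared, eBayes without trend and leaving out each sample. The restrictions to members with 1 transcript and to members with little shared sequence were chosen after seeing the data.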

Additional observations from a re-analysis of the deposited data

Results flagged for a closer look

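In 156 groups of 5 samples (named members by group), 10 had a sample whose gap to its nearest neighbour was over 0.71 of the group's range, and chance gives about 1 in 20 groups, or 7.8 here. Zfp148 had a low sample in both miRNA groups, miR-144 replicate 5 at 3.791 FPKM and miR-451a replicate 2 at 3.984 FPKM. Other low samples were miR-144 replicate 2 for Zfp326 (2.249 FPKM), miR-451a replicate 2 for Zfp36 (31.78 FPKM), miR-451a replicate 4 for Zfp622 (3.218 FPKM) and for Zfp746 (3.566 FPKM), and control replicate 4 for Zfp516 (4.14 FPKM). High samples were miR-144 replicate 3 for Zfp644 (2.463 FPKM), miR-451a replicate 2 for Zfp101 (1.705 FPKM) and miR-144 replicate 4 for Zfp703 (17.52 FPKM). No explanation for these samples was tested.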

How the results depend on the processing

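Scaling moved the counts and the medians. Median centring gave 112 members higher and 22 lower in miR-144 (median log2 difference 0.1300) and 108 and 24 in miR-451a (0.1189), and quantile normalization gave 100 and 25 (0.1033) and 92 and 29 (0.0965). Rescaling to TPM gave medians of 0.3962 and 0.4096, and a pseudocount of 0.1 FPKM 0.3726 and 0.3586. A minimum mean of 5 FPKM, which leaves 63 members, gave 52 called in miR-144 (48 higher, 4 lower) and 47 in miR-451a (43 and 4). A log2 difference of at least 0.5 left 31 (29 and 2) and 39 (37 and 2). The 24 members with 1 annotated transcript, a restriction chosen after seeing the data, gave 20 called (19 higher, 1 lower) in either comparison. Under centring the sign of named members turned in miR-144 for Zfp276 (-0.0078), Zfp207 (-0.0355), Zfp91 (-0.1026), Zfp106 (-0.0077), Zfp410 (-0.0786) and Zfp951 (-0.0116), and in miR-451a for Zfp207 (-0.0197), Zfp367 (-0.1343), Zfp106 (-0.0804), Zfp385a (-0.0234), Zfp410 (-0.0644) and Zfp568 (-0.0215). Under quantile normalization it turned in miR-144 for Zfp276 (-0.0367), Zfp410 (-0.1154), Zfp951 (-0.0837), Zfp91 (-0.0345), Zfp235 (-0.0504), Zfp644 (-0.0199) and Zfp932 (-0.0264), and in miR-451a for Zfp410 (-0.0985), Zfp367 (-0.1439), Zfp235 (-0.0135), Zfp951 (-0.0355) and Zfp568 (-0.0859). With TPM it turned in miR-144 for Zfp592 (0.0480), Zfp326 (0.0413) and Zfp367 (0.0390), and in miR-451a for Zfp592 (0.0315) and Zfp91 (0.0637). Leaving out single samples, 3 differences near 0 turned sign, those of Zfp326 in miR-144 (-0.0343 to 0.0099), and of Zfp91 (-0.0362 to 0.0036) and Zfp367 (-0.0080 to 0.0322) in miR-451a. Beyond the construction of the restrictions to fewer members or larger differences, the cause was not tested. Leaving out each sample in turn gave 175 to 189 members called in miR-144 (166 to 180 higher, 9 lower) and 175 to 187 in miR-451a (167 to 178 higher, 8 to 9 lower), medians of 0.2509 to 0.2722 and 0.2605 to 0.2797, and 0 called between the miRNA groups (median 0.0104 to 0.0236). The labels give no meaning to the replicate numbers, and samples with the same number were not taken as paired, since no comparison had every same-number correlation of deviations over 0.1. The mean of these correlations was -0.0122, 0.14 and 0.101 in the 3 comparisons (lowest -0.127, 0.0658 and -0.15), that of other numbers 0.00312, -0.0347 and -0.0251, and 1, 6 and 5 of 10 samples were closest to their own number. With the replicate number as a block, 175 members rose and 9 fell in miR-144 and 172 and 9 in miR-451a, and the calls of Zfp148 and Zfp809 were lost in both. Over all 2438 values of named members under an alternative, 2258 kept direction and side of the threshold, 115 kept direction but no longer passed, 30 kept it and newly passed and 35 turned sign. Members near 1 FPKM rest on the fewest fragments, and as no counts were tested, precision was judged from the spread between samples alone.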
